A study of Mus musculus with 11 samples.

Results

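The hairpins miR-7646 to miR-7689 are mouse microRNAs (miRNAs) that were catalogued late. They were taken as every row of the deposited miRNA table with a number in that range, both arms, which gave 88 mature miRNAs of 1966 in all, from 44 hairpin names and 45 places in the genome. The study measured small RNAs in mouse embryonic stem cells with and without a working DGCR8. Of the 11 libraries, 3 came from DGCR8 -/- cells that were not transfected (KO) and were induced with doxycycline at 300 ng/mL for 48 h. Another 3 came from cells of genotype wt/wt with the vector pSB ET iE-FlagDGCR8-wt (WT, clones 10, 12 and 16), and 3 from genotype E518K/E518K with pSB ET iE-FlagDGCR8-E518K (clones 8, 13 and 15). Both of these lines had also received pCMV(CAT)-SB100X, and these 6 libraries were induced in the same way. WT clone 10 and E518K clone 8 were also sequenced without doxycycline, 1 library each. All samples carried the same strain label, NBA1-19349 of Novus. The vector lines express a tagged DGCR8 from a transgene, and the 3 KO libraries name the same clone, 261, with nothing in the labels on separate cultures, so the p-values may measure only technical spread there.

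Most miRNAs are cut out of a long primary transcript in the nucleus by the microprocessor, a complex of the nuclease DROSHA and its RNA-binding partner DGCR8, and the resulting hairpin is cut again by DICER in the cytoplasm. E518K is a recurrent DGCR8 mutation of Wilms tumour, a kidney tumour of childhood. Some small RNAs reach DICER or the Argonaute proteins without the microprocessor, among them mirtrons (introns whose ends form the hairpin), pieces of snoRNAs and tRNAs, and hairpins at the capped start of a transcript. Other reads that map to a hairpin can be breakdown products of the RNA that contains it. A count table alone does not separate these, because it holds neither the ends nor the lengths of the reads.

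The mature sequences show what the best-covered of these miRNAs are. RefSeq (GRCm38.p6) gave a mature sequence for 77 of the 88 names and a hairpin record for 38 of 45 places. Those below belong to miRNAs that had enough counts to be tested, and at the end to 1 that had not. They are written 5′ to 3′, and have the seed (bases 2 to 8, which pair with targets) in capitals. The first 5 had the highest mean level in KO, apart from miR-7666-3p.
miR-7688-5p: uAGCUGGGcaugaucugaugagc
miR-7655-3p: uUUAUGACgcuccgugggccug
miR-7655-5p: cGGCCCACggagcuccuaaaga
miR-7648-3p: aGGGCUGGgcccgggacgcgg
miR-7650-5p: aAUCCUCUugcaacccagaacu
The next 7 had lower counts, and 4 of them (miR-7672-3p, miR-7653-5p, miR-7661-3p and miR-7674-5p) did not pass the test between KO and WT.
miR-7689-3p: uUAGAGCCagacugccuggguuu
miR-7670-3p: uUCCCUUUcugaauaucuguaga
miR-7672-5p: cGGUGGACuugacagcgggcga
miR-7672-3p: uCGGCUGCcagguucaugugg
miR-7653-5p: uAAGGGGCggacagacagacgg
miR-7661-3p: uUGACUCCcaguuucucucugc
miR-7674-5p: uGAGGUGUgggcagcaugaggacu
The last sequence belongs to the member with the most counts in induced WT among those with none in KO.
miR-7652-3p: uCUGGCUUuccuguggcuucu
Within the set 1 seed was shared, CUGGCUU of miR-7652-3p and miR-7688-3p. The seed of miR-7670-3p, UCCCUUU, is also that of miR-204-5p and miR-211-5p, and the seed of miR-7648-3p, GGGCUGG, is that of miR-762 and miR-6940-5p. No other sequence listed above shared a seed with another miRNA of the table except miR-7661-3p, which shares UGACUCC with miR-3077-3p.

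Libraries differed widely in depth. Summed miRNA counts ran from 166676 to 208846 in KO, from 3394216 to 6128734 in induced WT and from 1050564 to 1797240 in induced E518K, with 1421247 in untreated WT and 264507 in untreated E518K. Levels are given as CPM, counts divided by library size, after TMM scaling, which sets each library's size from the bulk of its miRNAs. Of the counts from 1 to 40 of these miRNAs, 94.2% were even, so 1 small RNA mostly appeared as 2 counts, and the level that 0 counts allow was set at 6 counts per library. That floor was 12.8 to 18.3 CPM in KO, 1.11 to 2.94 in induced WT and 3.93 to 6.04 in induced E518K, and it covers counting error only. All 10 stem cell markers (miR-290 to miR-295, miR-302 and miR-367 arms) had counts, at 5.2% to 7.88% of all counts in induced WT, 2.82% to 4.08% in induced E518K and 0.0198% to 0.0472% in KO. The 5 fibroblast markers summed to 1.23% to 1.74% in KO and 0.22% to 0.317% in induced WT, mostly miR-143-3p, miR-199a-3p and miR-199a-5p. The liver marker miR-122-5p had 0.0108% to 0.0177% in KO and 6.53e-05% to 0.000303% in induced WT. Muscle markers had 0.01% to 0.0324% in KO and 0.000825% to 0.00157% in WT. Neuron markers were lower in KO, at 0.0129% to 0.0168% against 0.214% to 0.45%. Blood markers overlapped, at 0.00591% to 0.0186% and 0.004% to 0.0248%. What part cells with these markers had in the results below was not tested.

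Few of the 88 were detected well. No library had a count for 31 of them, 57 had a count somewhere, and 16 passed the filter for testing. Most passed through counts in a shallow library, KO or untreated E518K, and most of these were high in KO. An exception was miR-7661-3p, which passed through 2 counts in KO library 3 although WT clone 16 had 24. Counts were found for 28 in KO, 42 in induced WT and 24 in induced E518K. Of these, 18 had counts in both KO and WT, 24 in WT and not in KO, and 10 in KO and not in WT. A single KO library detected 17 to 20 of them with at least 1 count, against 23 to 27 in WT and 11 to 17 in E518K, although the KO libraries were the shallowest.

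As a group they made up a larger part of all miRNA counts in KO. Together they had 773, 552 and 583 counts in KO, 116, 116 and 269 in induced WT and 326, 123 and 209 in induced E518K. That was 0.349% ± 0.0198 (SD, n = 3) of all miRNA counts in KO, 0.00328% ± 0.00133 (SD, n = 3) in induced WT and 0.0149% ± 0.00322 (SD, n = 3) in induced E518K. The ranges of the 3 groups did not overlap, from 0.331% to 0.370% in KO, 0.00189% to 0.00453% in WT and 0.0117% to 0.0181% in E518K. A share is relative: most other miRNAs had lower counts in KO, and the raw sums, which are not corrected for depth, differed far less than the shares. On the authors' pRPM scale, which gives each group its own miRNA total, the sums were 282 to 315 in KO, 17.8 to 42.5 in induced WT and 80 to 124 in induced E518K, so the difference was smaller there but KO was still the highest of these groups. One miRNA, miR-7688-5p, supplied 56.7% to 67.8% of the summed counts in KO, 29.4% to 35.3% in WT and 46.3% to 78% in E518K. Without it the mean shares were 0.129% in KO, 0.00222% in WT and 0.00586% in E518K.

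**Figure D1:**
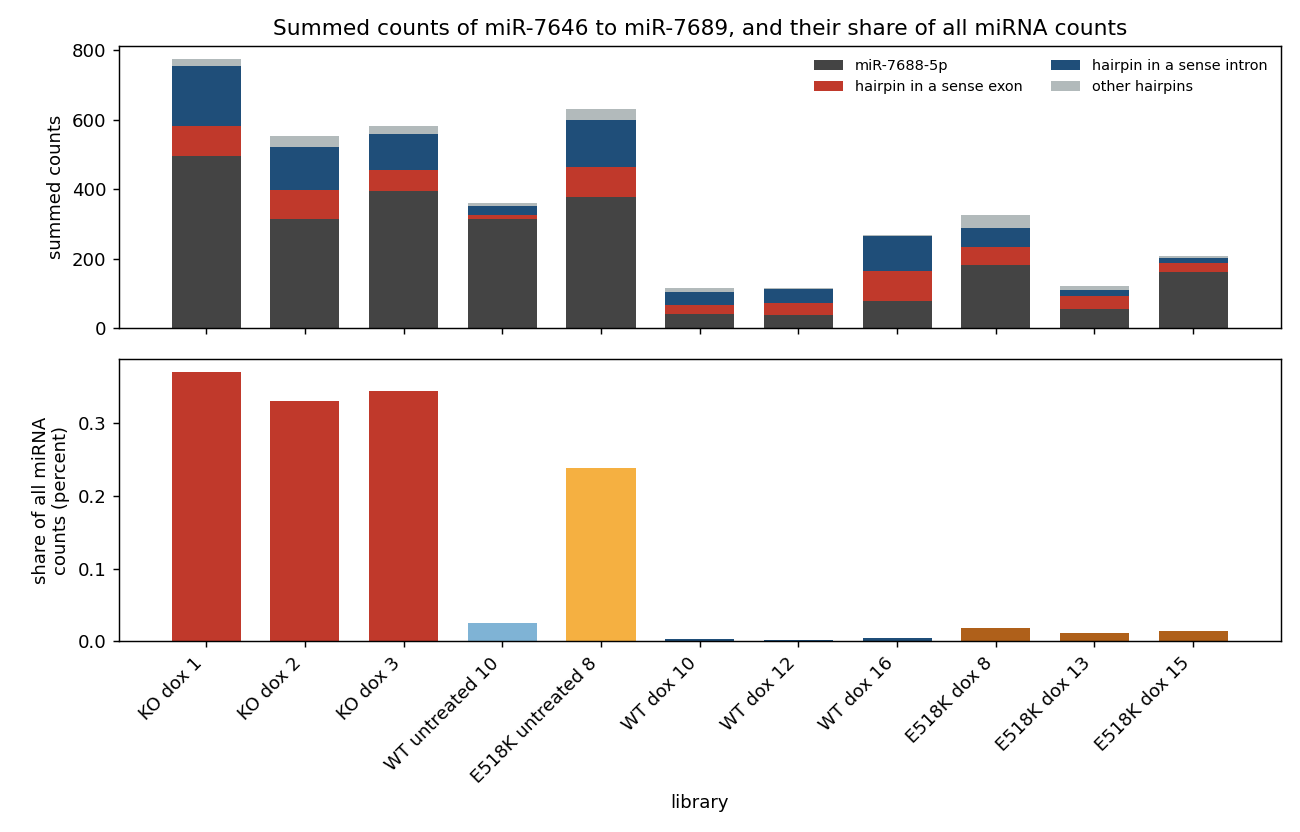
Summed counts of the 88 miRNAs in each library (upper bars, stacked by miR-7688-5p and by the place of the other hairpins) and their share of all miRNA counts in percent (lower bars). The KO libraries have 552 to 773 summed counts and shares from 0.331% to 0.370%, and the untreated E518K library has 630 counts and 0.238%.

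The first comparison was KO against induced WT, which asks which miRNAs need DGCR8 and which do not. Of the 16 tested, 12 were higher in KO and 0 were lower after TMM scaling, with edgeR's quasi-likelihood test adjusted over all 730 miRNAs tested by Benjamini-Hochberg. At an unadjusted p under 0.05 the count of lower members was also 0, as it was with DESeq2, which used the same filter. A few counts in a shallow KO library pass that filter, while the deep WT libraries need many more. Thus miR-7652-3p, with 12, 8 and 29 counts in WT and 0 in KO, was not tested. The count of 0 lower therefore does not show that no member needs DGCR8. Over all miRNAs tested, 30% were called higher and 58.4% lower. The median log2 change of the 16 was 5.94, and that of all miRNAs tested was -3.54. The median of the 16 was 4.08 with members at 0 in a whole group set to a bound. That bound was used only where the other group was above its mean floor, as for miR-7670-3p. Elsewhere the change of such members was set to 0. The KO and WT values did not overlap for 11 of the 16, and for 84.9% of all miRNAs tested. A member that is tested only because it is high in KO had to differ, so these counts describe the 16 and not the 88. Leaving out 1 library gave 10 to 12 higher members and moved the median of all miRNAs between -4.46 and -2.70.

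Direction in KO depended on the scaling. Beside these miRNAs stood a list of 15 known to be made without the microprocessor (miR-320, miR-484, miR-877, miR-702, miR-1224, miR-1983, miR-1839, miR-1291 and miR-1981 arms). Of its 14 tested members 13 rose and 0 fell in KO, with a median log2 change of 5.07. Of 36 miRNAs of the stem cell clusters miR-290, miR-302 and miR-17, 35 were tested, 33 fell and 0 rose, with a median of -8.34. The libraries were also scaled so that the summed counts of the first list stayed level. That sum was led in KO by miR-1981-5p, at 113000 CPM against 328 in induced WT, followed by miR-1839-5p at 20600 against 806. The log2 change of miR-1981-5p was 8.43, above the list median, so the members of the list did not each stay level. How far the values on this scale rest on miR-1981-5p was not tested. On it the median of miR-7646 to miR-7689 was -0.29, 0 of 16 were higher and 5 were lower in KO, and the median of all miRNAs was -9.30. The 5 were miR-7650-5p at -1.87, miR-7653-5p, miR-7661-3p, miR-7672-3p and miR-7674-5p, the last 4 at or under the KO floor in KO. With the total set to the authors' pRPM values 11 were higher and 0 lower. Every statement below that a member was higher in KO is on the TMM scale and does not hold with the libraries scaled by that list.

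**Figure D2:**
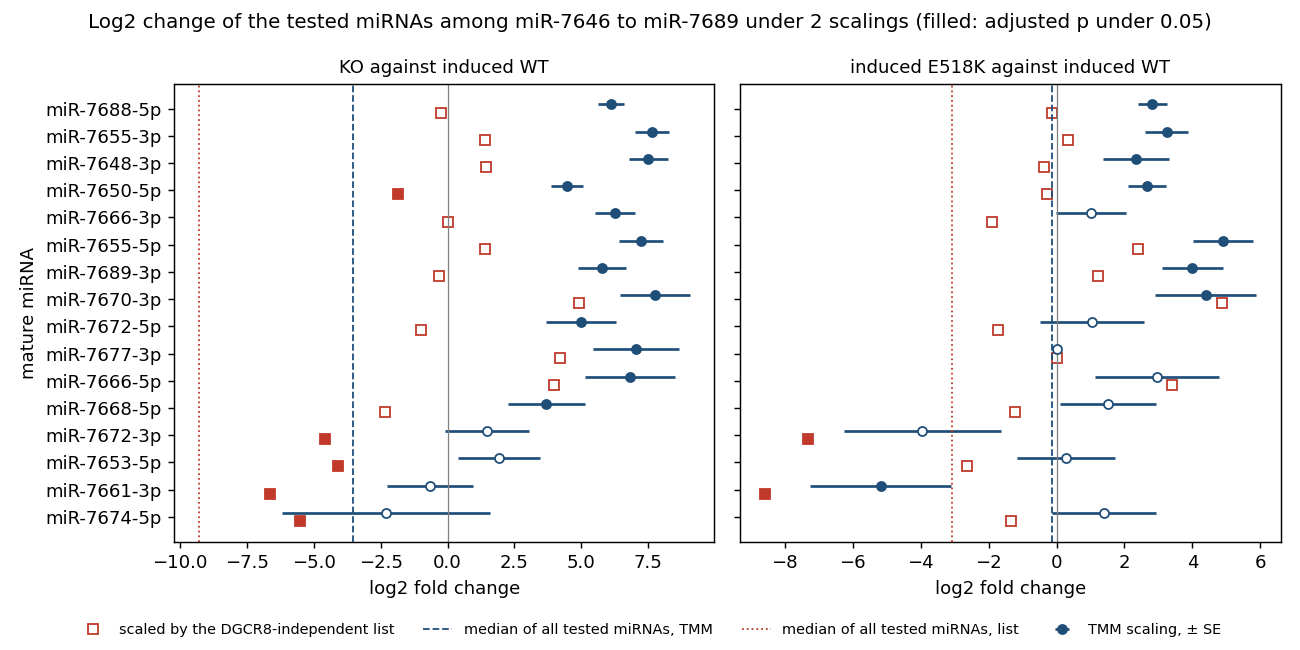
Log2 change of the 16 tested miRNAs for KO and for induced E518K, each against induced WT, under TMM scaling (circles, with standard error) and with libraries scaled by the DGCR8-independent list (squares); dashed and dotted lines mark the medians of all 730 miRNAs tested. Fitted values of miRNAs under the floor in both groups are drawn but are not folds. In KO the median of the 16 moves from 5.94 to -0.29 and that of all miRNAs from -3.54 to -9.30.

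The most abundant was miR-7688-5p, whose hairpin (chr10:93433107-93433162, plus strand, GRCm38.p6) lies in no annotated gene. KO libraries 1, 2 and 3 had 496, 313 and 395 counts of it, WT clones 10, 12 and 16 had 41, 40 and 79, and E518K clones 8, 13 and 15 had 181, 57 and 163. Its sequence, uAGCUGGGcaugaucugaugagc, has a 3p partner with 10 counts in all, so 99.6% of the hairpin's counts came from the 5p arm. Scaled for depth, every KO library was above every WT and E518K library, at 1070 CPM ± 133 (SD, n = 3) in KO, 15.6 ± 4.08 (SD, n = 3) in WT and 110 ± 58.8 (SD, n = 3) in E518K. The log2 change in KO was 6.10 ± 0.48 (SE), adjusted p = 2.3e-32 by edgeR, and between 5.43 without KO library 1 and 6.96 without KO library 2. Scaled by the DGCR8-independent list it was -0.25. Untreated WT clone 10 had 313 counts (456 CPM) against 20.1 CPM after induction, and untreated E518K clone 8 had 379 counts (1200 CPM) against 118 CPM.

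Next came both arms of miR-7655, a hairpin in an intron of Mllt10, a chromatin factor that works with the histone methyltransferase DOT1L (chr2:18057846-18057903, plus strand). For miR-7655-3p, KO had 114, 92 and 72 counts, WT 2, 6 and 4, and E518K 27, 12 and 6. The 5p arm had 26, 10 and 10 counts in KO, 0, 0 and 2 in WT and 20, 4 and 6 in E518K. Neither arm overlapped between KO and WT. In KO miR-7655-3p reached 246 CPM against 1.18 in WT, a log2 change of 7.64 ± 0.63 (SE), adjusted p = 4.3e-30 by edgeR. It lay between 6.99 without KO library 1 and 8.63 without WT clone 12. The WT mean was under the mean WT floor of 1.96 CPM. The ratio of summed counts was 220, with a 95% exact counting interval from 98.5 to 610. For miR-7655-5p the log2 change was 7.23 ± 0.83, adjusted p = 4.9e-17 by edgeR, and 6.21 without KO library 1. WT clone 16 held its only WT counts, so no fold is given without that clone. With 2 counts in WT, the ratio of summed counts of miR-7655-5p was 218, with a 95% exact counting interval from 35.5 to 9000. Of the hairpin's counts over all libraries 20.2% came from the 5p arm, so both arms of this intronic hairpin were present in KO.

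Fewer counts came from miR-7648-3p, whose hairpin starts 11 bases after a transcript start of Alg10b, in its 5′ UTR (chr15:90224360-90224412, plus strand). Alg10b encodes a glucosyltransferase of N-glycan assembly. There were 46, 26 and 22 counts in KO, 0, 2 and 2 in WT and 0, 6 and 2 in E518K, so no WT library reached the lowest KO library. The log2 change in KO was 7.50 ± 0.74 (SE), adjusted p = 7e-22 by edgeR, at 81.1 CPM against 0.326, and lay between 6.68 without KO library 1 and 8.43 without WT clone 12. Of the counts of miR-7648, 7.35% came from the 5p arm. Its hairpin record had the RNAfold free energy of -0.847 kcal/mol per base, against a median of -0.415 over the hairpins miR-7646 to miR-7689 with a record and -0.406 over other miRNAs. Of the 45 hairpins, 4 (8.9%) began within 100 bases after a transcript start on the same strand (miR-7648, miR-7650, miR-7653 and miR-7684), against 41 of 1169 others (3.5%). For miR-7650 this is the annotated start of a snoRNA gene, Gm25500, at 59 bases, and whether it is a capped start was not tested. Counting both sides of a start there were 7 (15.6%) against 82 (7.0%), with miR-7654, miR-7662 and miR-7674 added. Whether a capped start of Alg10b gives this small RNA was not tested.

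At miR-7650 the annotation has 2 other RNAs: the hairpin lies in the snoRNA gene Gm25500, itself in an exon of a transcript of Taf1d, a factor of RNA polymerase I (chr9:15312611-15312669, plus strand). Counts of miR-7650-5p were 20, 29 and 32 in KO, 6, 6 and 26 in WT and 42, 24 and 16 in E518K. The raw counts of WT clone 16 and of 2 E518K clones reached the KO range, but in CPM all KO libraries were higher, with 42.6, 87 and 97.6 CPM against 1.82 to 4.82 in WT and 16.1 to 27.5 in E518K. The log2 change in KO was 4.46 ± 0.59 (SE), adjusted p = 3e-13 by edgeR, and -1.87 with the DGCR8-independent list as scale. The 5p arm held 96% of the counts of the hairpin. Its mature sequence, aAUCCUCUugcaacccagaacu, is found in the annotated transcripts of Gm25500 and Taf1d, and whether its reads are pieces of the snoRNA was not tested.

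On the minus strand, miR-7666 lies in an intron of Fgf20, a growth factor gene, 402 bases from its start, and opposite to Micu3, a regulator of mitochondrial calcium uptake (chr8:40307875-40307929). The 3p arm had 26, 15 and 18 counts in KO, 4, 0 and 2 in WT and 5, 0 and 0 in E518K. The 5p arm had 2, 6 and 2 in KO, 0 in each WT library and 0, 0 and 2 in E518K. For miR-7666-3p the log2 change in KO was 6.26 ± 0.74 (SE), adjusted p = 5.5e-16 by edgeR. It lay between 5.53 without KO library 1 and 7.95 without WT clone 10. The WT mean of miR-7666-3p, 0.778 CPM, was under the mean WT floor of 1.96 CPM. Its ratio of summed counts was 94.9, with a 95% exact counting interval from 29.5 to 486. The adjusted p of miR-7666-5p was 9.8e-05. Its mean of 9.46 CPM in KO was under the KO floor, so no fold is given. The authors' treatment of strand in counting is not given here, so reads of the opposite strand cannot be told apart.

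Likewise opposite to a gene, miR-7689 lies antisense to an intron of Sorcs2, a sorting receptor (chr5:36301570-36301628, plus strand). Counts of miR-7689-3p were 7, 14 and 8 in KO, 2, 2 and 0 in WT and 18, 8 and 4 in E518K, and no 5p count was found. The log2 change in KO was 5.77 ± 0.90 (SE), adjusted p = 4.8e-10 by edgeR, and between 4.98 without WT clone 16 and 6.88 without WT clone 10. The hairpin miR-7668 lies antisense to an exon of Zfp27, a zinc finger gene (chr7:29906509-29906567, plus strand). Its 5p arm had 4, 0 and 4 counts in KO and 4, 0 and 0 in WT, and these values overlapped. Its mean of 6.91 CPM in KO was under the KO floor, so no fold is given. The call for miR-7668-5p, with adjusted p = 0.013 by edgeR, was lost without KO library 1 (0.14), without WT clone 16 (0.071), with DESeq2 (0.23) and on the pRPM scale (0.20). The limit on strand holds for both hairpins.

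Hairpins inside an exon of a protein-coding gene, or at an exon edge, supplied 3 more of the members higher in KO. The hairpin miR-7670 lies in the 3′ UTR of Ubn2, a subunit of the HIRA histone chaperone complex (chr6:38507325-38507393, plus strand). KO had 8, 10 and 2 counts of miR-7670-3p, WT had 0 in each library and E518K had 2, 0 and 4. Its mean level in KO, 17.7 CPM, was 9.05 times the mean WT floor, a lower bound for the fold over WT (adjusted p = 9.2e-09 by edgeR). That mean was just above the mean KO floor of 16.4 CPM, with 17.1, 30 and 6.1 CPM in KO libraries 1, 2 and 3. The hairpin miR-7672 lies in a coding exon of Pde12, a phosphodiesterase of mitochondrial RNA (chr14:26669547-26669608, minus strand). Its 5p arm had 2, 10 and 2 counts in KO and 0, 0 and 4 in WT, with adjusted p = 0.00021 by edgeR. The KO mean of miR-7672-5p, 13.5 CPM, was under the mean KO floor of 16.4 CPM, so no fold is given. For miR-7677, 1 hairpin end is within 5 bases of an intron end of Itpr3, a calcium channel (chr17:27091245-27091311, plus strand). Counts of miR-7677-3p were 4, 6 and 2 in KO and 0 in each induced WT and E518K library, with adjusted p = 2.1e-05 against WT. Its KO mean of 10.9 CPM was also under that floor.

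The other 4 tested miRNAs did not pass the test between KO and WT. Counts of miR-7672-3p, the partner arm in the Pde12 exon, were 2, 2 and 0 in KO and 2, 2 and 10 in WT (adjusted p = 0.36 by edgeR). In an exon of Tlcd1, a membrane protein gene, that is 5′ UTR or coding depending on the transcript (chr11:78178827-78178887, plus strand), miR-7653-5p had 4, 0 and 0 counts in KO and 0, 2 and 8 in WT (adjusted p = 0.23). An intron of Itpr1, a calcium channel related to Itpr3, holds miR-7661 (chr6:108489743-108489803, plus strand). The 3p arm had 0, 0 and 2 counts in KO and 6, 4 and 24 in WT (adjusted p = 0.70). At an intron end of Nup214, a nuclear pore gene (chr2:32050946-32051008, plus strand), miR-7674-5p had 0 counts in each KO library and 0, 0 and 4 in WT (adjusted p = 0.57). All 4 had their highest raw count in WT clone 16 or, for miR-7674-5p, in untreated E518K clone 8 with 8 counts. All 4 were under the floor in KO, and all 4 were called lower in KO with the DGCR8-independent list as scale, so their outcome depended on the scaling.

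**Figure D3:**
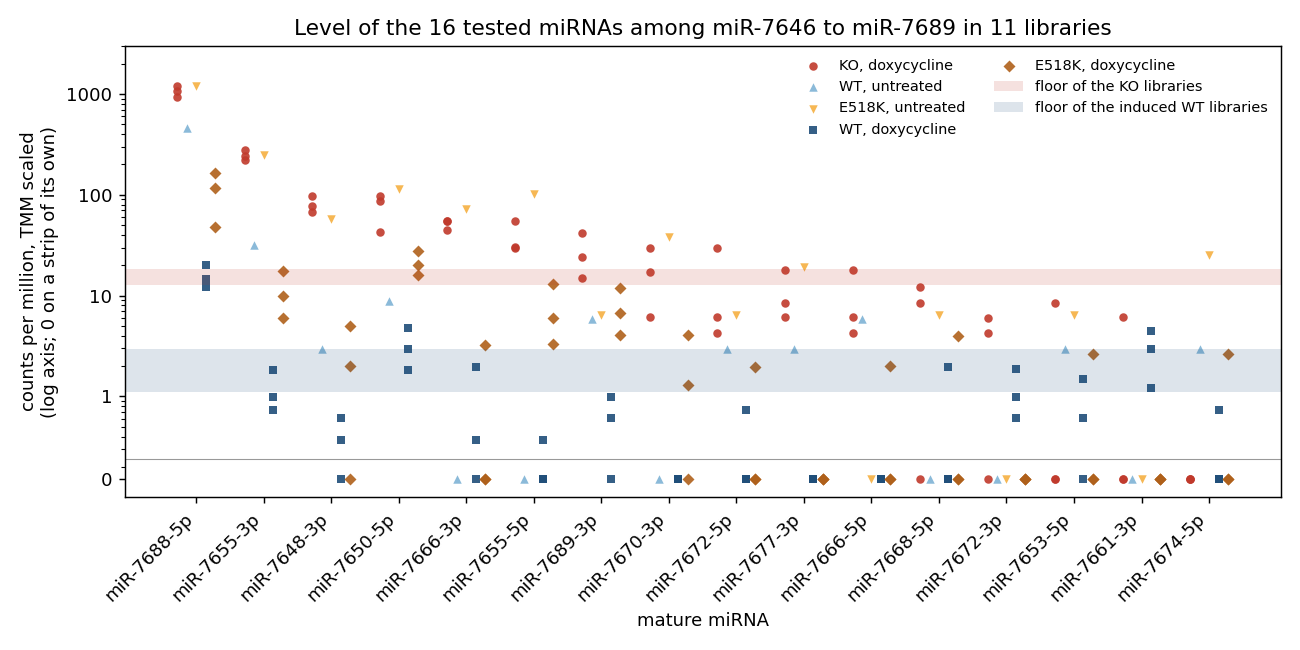
Level of the 16 tested miRNAs in each of the 11 libraries, in CPM on a log axis with values of 0 on a strip of their own; bands mark the floor of the KO and the induced WT libraries. All KO points of the first 7 miRNAs lie above all induced WT points, and miR-7688-5p reaches 939 to 1200 CPM in KO against 12.1 to 20.1 in WT.

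The counts that were found in WT but in no KO library were all low. This pattern held for 24 arms, 21 of which had no count in induced E518K either. Its leading member was miR-7652-3p, uCUGGCUUuccuguggcuucu, in the 3′ UTR of G3bp1, a stress granule protein (chr11:55501226-55501281, plus strand). It had 12, 8 and 29 counts in WT clones 10, 12 and 16, 0 in each KO library, and 0, 2 and 0 in E518K. That was 4.56 CPM in WT, below the lowest KO floor of 12.8 CPM, and a KO level equal to WT would have given 5.16 counts over the 3 KO libraries. It did not pass the filter, and in a fit without the filter its difference between KO and WT had an adjusted p of 0.064 by edgeR. Of the 24, 0 had a mean WT level above the lowest KO floor, so on the TMM scale a loss of these miRNAs in KO was not detectable at this depth. That limit depends on the scaling: with the DGCR8-independent list as scale, miR-7674-5p, 1 of the 24, was called lower in KO. Whether the 24 need DGCR8 is therefore not settled here.

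Next after miR-7652-3p came miR-7667-3p, in an intron of the Rab regulator gene Tbc1d22b, with 8, 2 and 9 counts in WT. It was followed by miR-7682-3p with 2, 2 and 12, miR-7651-5p with 2, 2 and 10, miR-7659-5p with 4, 4 and 2 and miR-7663-3p with 2, 0 and 8. All 5 are from sense introns and had 0 counts in KO and in induced E518K. The 24 arms together had 49, 38 and 100 counts in WT, 6, 2 and 0 in E518K, 2 in untreated WT and 8 in untreated E518K. The pattern itself was common: of members with 1 to 50 counts in WT, 58.5% (24 of 41) had none in KO, and of other miRNAs with as few counts in WT 58.6% (312 of 532) had none.

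**Figure D4:**
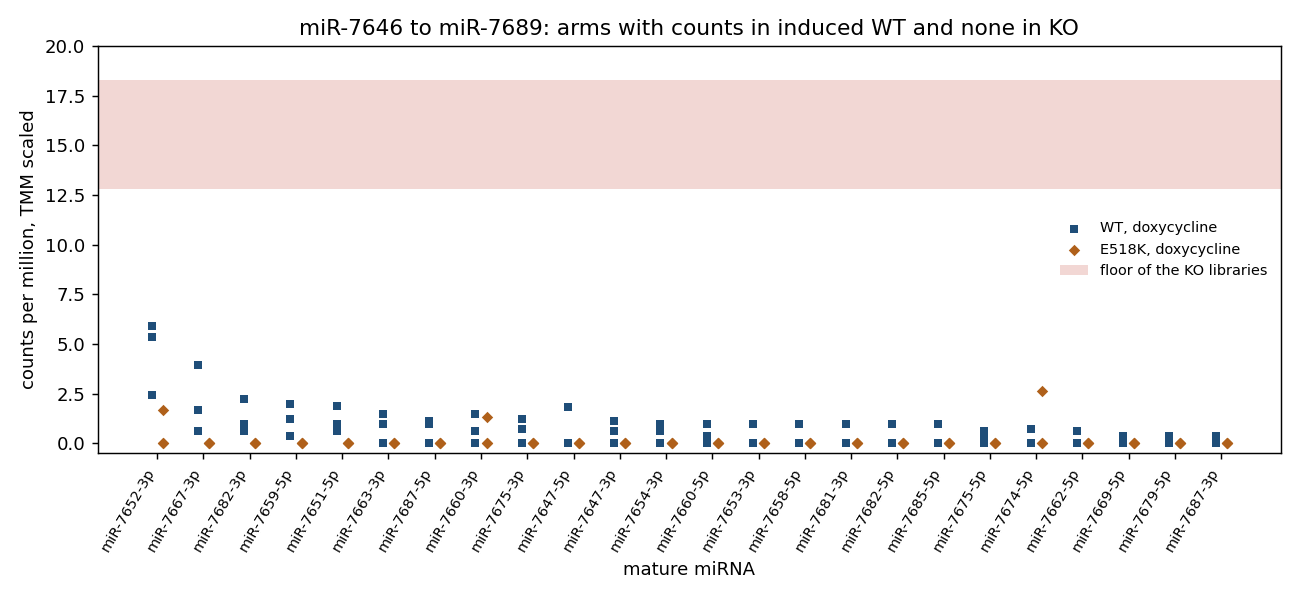
Level in CPM of the 24 arms with counts in induced WT and none in KO, in each induced WT and E518K library, with the floor of the KO libraries as a band. The highest mean, that of miR-7652-3p, is 4.56 CPM, and the band starts at 12.8.

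The opposite pattern was seen at a hairpin in no annotated gene, miR-7671 (chr11:53763597-53763654, minus strand). Its 5p arm had 0, 4 and 4 counts in KO and its 3p arm 2, 4 and 0, while all 3 induced WT libraries had 0 of both. Untreated E518K had 2 and 4 counts of these arms. In the fit without a filter the adjusted p-values between KO and WT were 0.00061 for miR-7671-5p and 0.0035 for miR-7671-3p by edgeR, and both were under the floor in KO. The remaining 38 miRNAs with a count did not pass the filter and had 2 to 19 counts summed over all 11 libraries. Of these, the fit without a filter called miR-7668-3p (adjusted p = 0.0072 by edgeR) and miR-7688-3p (adjusted p = 0.01) higher in KO. KO libraries 1, 2 and 3 had 0, 0 and 4 counts of miR-7668-3p and 0, 2 and 2 of miR-7688-3p, with 0 in WT. Both KO means, 4.07 and 4.03 CPM, were under the KO floor. In that fit 22% of all miRNAs were called higher in KO.

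Where the hairpins lie bears on whether their reads can be host exon fragments. Of the 45 hairpins, 20 (44.4%) overlapped an exon of another gene on the same strand, against 255 of 1169 other mouse hairpins (21.8%). Of these 20, 3 (miR-7674, miR-7677 and miR-7678) also had an end at an intron end and were classed there. That left 17 (37.8%) in the sense exon class, and 18 (40%) lay in a sense intron. Among the others these shares were 17.2% and 32.0%. A further 4 (8.9%) had 1 end within 5 bases of an intron end, and 0 had both, as a mirtron would, against 18.3% and 1.8% of the others. The rest were 1 antisense to an exon, 2 antisense to an intron and 3 in no gene. With protein-coding transcripts only, 13 of the 17 stayed in the exon class.

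Exonic and intronic arms were both found in KO and in WT. Of the 32 arms in sense exons, 19 had a count: 9 in both KO and WT, 5 in WT and not in KO, and 3 in KO and not in WT. Of the 36 arms in sense introns, 24 had a count: 6 in both, 16 in WT and not in KO, and 1 in KO and not in WT. The exonic arms had 86, 86 and 60 counts in KO, 26, 32 and 87 in WT and 53, 36 and 24 in E518K. For the intronic arms the sums were 172, 123 and 104 in KO, 39, 42 and 99 in WT and 54, 16 and 14 in E518K. Of the tested members, 4 of 6 in exons and 4 of 5 in introns were higher in KO on the TMM scale. The difference between the classes was not tested.

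The exonic miRNAs with KO counts differed in their hosts. Those in a 5′ UTR (miR-7648-3p in Alg10b), in a snoRNA (miR-7650-5p in Gm25500), in a coding exon (miR-7672-5p in Pde12) and in a 3′ UTR (miR-7670-3p in Ubn2) were each matched letter for letter in an annotated transcript of the host. A full match in a spliced host transcript was also found for miR-7652-3p in G3bp1, which had its counts in WT. Such matches follow from arms that lie whole inside exons of the same annotation, so they say nothing about the origin of the reads. Arm use differed as well: the 5p arm held 58.1% of the counts of miR-7672, 5% of miR-7670 and 96% of miR-7650. The levels of the host RNAs were not measured here, so whether the exonic counts are fragments of host RNA was not tested.

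In sequence the 77 mature miRNAs resembled the others of the table. Their median length was 22 bases, as among the 1598 others, their median GC content 52.4% against 52.2%, and 39.0% began with U against 41.1%. Their hairpin records were shorter, with a median of 61 bases (53 to 72) against 79. All 30 with both arms in RefSeq started and ended exactly with an arm, against 12.7% of 614 others, so the record lengths of the sets are not drawn alike.

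The second comparison set E518K against WT, both induced. On the TMM scale 7 of the 16 tested were higher and 1 was lower in E518K, while 28.2% of all miRNAs tested were called higher and 35.3% lower. Values did not overlap for 7 of the 16 and for 64.5% of all. The median log2 change of the 16 was 1.93 and that of all miRNAs -0.14. With members at 0 in a whole group set to a bound or to 0, by the same rule as above, it was 1.22 for the 16. For miR-7661-3p that bound lay on the other side of 0 from its fitted change, so it sets no limit. Of the DGCR8-independent list 12 of 14 were higher and 0 lower, with a median of 2.95. Of the stem cell clusters 5 of 35 were higher and 11 lower, with a median of 0.20. With libraries scaled by the DGCR8-independent list the median of the 16 was -0.33, 0 were higher and 2 lower, and the median of all miRNAs was -3.09.

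The member with the most counts in E518K, miR-7688-5p, had 181, 57 and 163 there against 41, 40 and 79 in WT, and no E518K library overlapped WT in CPM. Its log2 change was 2.82 ± 0.43 (SE), adjusted p = 6e-10 by edgeR, and between 2.42 without E518K clone 15 and 3.58 without WT clone 16. The arms of miR-7655 changed by 4.90 ± 0.87 for 5p (adjusted p = 1.6e-07) and 3.24 ± 0.63 for 3p (adjusted p = 1.2e-06). The change of the 5p arm was 4.22 without E518K clone 8 and 4.24 without WT clone 12. No fold is given for it without WT clone 16, which held its only WT counts. For the snoRNA-encoded miR-7650-5p the change was 2.66 ± 0.57 (adjusted p = 1.1e-05, and 3.80 without WT clone 16). For miR-7689-3p it was 4.0 ± 0.89 (adjusted p = 2.6e-05). These 5 did not overlap between the groups.

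Lower counts carried the other calls. The call for miR-7670-3p (adjusted p = 0.0059) rests on 2, 0 and 4 counts against 0 in WT, under the floor in both groups, and was lost without E518K clone 15 (0.096). For miR-7648-3p the adjusted p was 0.029, with overlapping values and both groups under the floor, so no fold is given. That call was lost without WT clone 10 (0.11), WT clone 12 (0.062) or E518K clone 13 (0.57), with DESeq2 (0.052), with DESeq2 size factors (0.066) and with halved counts (0.084). The 1 member called lower was miR-7661-3p of the Itpr1 intron, with 6, 4 and 24 counts in WT and 0 in each E518K library, adjusted p = 0.022. The WT mean of 2.87 CPM was under the E518K floor, so no fold is given, and the call was lost with DESeq2 (0.22) and without E518K clone 8 (0.095), 13 (0.053) or 15 (0.067).

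The third comparison, E518K against KO, uses the same libraries as the first pair. Here 0 of the 16 were higher (0 also at an unadjusted p under 0.05 and with DESeq2) and 12 were lower in E518K, with 41.9% of all miRNAs called higher and 26.2% lower. DESeq2 used the same filter, which a few counts in a shallow KO library pass, so the 0 describes the 16 only. Values did not overlap for 11 of the 16 and for 67.5% of all. The median was -3.60, against 1.35 over all miRNAs. It was -2.25 with the change of members at 0 in a whole group set to 0, because in each the other group was under its floor. Of the DGCR8-independent list 12 of 14 were lower, with a median of -2.57, and of the stem cell clusters 34 of 35 were higher, with a median of 7.87. The count of 12 fell to 7 without KO library 1, to 6 without E518K clone 15, to 5 on the pRPM scale and to 0 with the DGCR8-independent list as scale, where 2 were higher.

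Among them miR-7688-5p was lower in E518K than in KO by a log2 change of -3.28 ± 0.42 (SE), adjusted p = 1.2e-13 by edgeR, between -4.13 without KO library 2 and -2.59 without KO library 1. The change of miR-7655-3p was -4.40 ± 0.53 (adjusted p = 2.5e-15), between -5.57 without E518K clone 8 and -3.30 without E518K clone 15. That of miR-7648-3p was -5.16 ± 0.68 (adjusted p = 6.6e-13), between -7.17 without E518K clone 13 and -4.20 without E518K clone 15. For miR-7666-3p it was -5.24 ± 0.76 (adjusted p = 6.5e-11), and -3.99 without E518K clone 15. Clone 8 held all 5 E518K counts of miR-7666-3p, so no fold is given without that clone. The E518K means of miR-7648-3p (2.33 CPM) and miR-7666-3p (1.09 CPM) were under the mean E518K floor of 4.99 CPM. The calls of these 4 miRNAs held in each leave-one-out fit.

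Calls of the other members were less stable, except that of miR-7677-3p, which held in each leave-one-out fit that tested it. The log2 change of miR-7655-5p was -2.33 ± 0.61 (adjusted p = 3e-04), between -3.73 without E518K clone 8 and -1.27 without KO library 1, with the call lost without KO library 1 (0.11) or E518K clone 15 (0.066). That of miR-7650-5p was -1.80 ± 0.53 (adjusted p = 0.0014), between -2.61 without E518K clone 8 and -0.84 without E518K clone 15, and lost without E518K clone 15 (0.20). That of miR-7670-3p was -3.35 ± 1.03 (adjusted p = 0.0022), between -4.45 without KO library 3 and -2.66 without KO library 1, and lost without KO library 1 (0.061). That of miR-7689-3p was -1.77 ± 0.72 (adjusted p = 0.022), between -2.87 without E518K clone 8 and -0.69 without E518K clone 15, and lost without KO library 1 (0.12) or E518K clone 15 (0.45). Of those under the floor in both groups, miR-7672-5p had an adjusted p of 0.0069 (0.10 without KO library 2 and 0.11 without E518K clone 15), miR-7677-3p of 0.00091, miR-7666-5p of 0.023 (0.053 without E518K clone 8) and miR-7672-3p of 0.045, which rose to 0.074 to 0.17 without KO library 1 or 2 or E518K clone 8 or 15.

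The untreated libraries show the level before induction, with 1 library for each line and no test. The 88 miRNAs had 361 counts in untreated WT, 0.0254% of all (95% exact binomial interval 0.0218% to 0.0293%), and 630 in untreated E518K, 0.238% (0.213% to 0.266%). The untreated WT share lay above the 3 induced WT libraries, and the untreated E518K share above the 3 induced E518K libraries and below KO. In untreated E518K miR-7655-3p stood at 248 CPM, miR-7650-5p at 114, miR-7655-5p at 102, miR-7666-3p at 73.1 and miR-7648-3p at 57.2, within or above the KO range for all but miR-7648-3p, which was below it. In that library miR-7689-3p had 2 counts, 6.35 CPM, against 14.9 to 42 in KO and 11.8 in the induced library of the same clone, and miR-7666-5p had 0. The floor was 19.1 CPM in untreated E518K and 8.75 in untreated WT. Both values lie under the floor of untreated E518K, so their place against KO cannot be told. In untreated WT the first 5 stood at 32.1, 8.75, 0, 0 and 2.92 CPM. In the induced library of E518K clone 8 they were 17.7, 27.5, 13.1, 3.27 and 0 CPM. The counts of these libraries cannot tell apart an effect of doxycycline from one of the induced protein.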

How the data were processed

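Small RNA was sequenced in 11 libraries of mouse embryonic stem cells, made from total RNA with a NEBNext small RNA kit per the labels' protocols. The authors deposited read counts for 1966 mature miRNAs and the same miRNAs in a scaled RPM (pRPM) with 1 total per group, used here only as an alternative scale. Another deposited file was identical to the pRPM table and was not used here. STAR, bedtools and GRCm38.p6 are named in the submitters' processing notes, without roles; the sources used here give no trimming, strand or counting rule.

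Counts were filtered with filterByExpr (minimum count 10, minimum total 15), scaled by TMM and fitted over all 11 libraries in 5 groups with edgeR 4.0.16 (quasi-likelihood, R 4.3.3). Adjusted p-values are Benjamini-Hochberg over all 730 miRNAs tested, with a threshold of 0.05. DESeq2 1.42.0 was an alternative, with other scalings, filters and left-out libraries. Hairpins were placed by RefSeq and GENCODE annotation of GRCm38.p6 and folded with RNAfold 2.7.2. The script was tested on simulated data. Members and lists were chosen with earlier results of these data known. Every tested member is named, and of the rest those with at least 6 counts in KO or 20 in all; miR-7667-3p, miR-7682-3p, miR-7651-5p, miR-7659-5p, miR-7663-3p, miR-7668-3p and miR-7688-3p were named after their values were seen. Transcript matches, start distances, exon overlaps beyond the class and hairpin ends were also looked at after seeing the data.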

Additional observations from a re-analysis of the deposited data

How the results depend on the processing

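The scaling by the DGCR8-independent list changed the most. In KO against induced WT it gave 0 higher and 5 lower members (from 12 and 0), in induced E518K against WT 0 higher and 2 lower (from 7 and 1), and in E518K against KO 0 lower and 2 higher (from 12 and 0). Among changes that passed the test on either scale, signs turned there for miR-7650-5p (-1.87), miR-7653-5p (-4.11), miR-7668-5p (-2.35), miR-7672-5p (-1.01), miR-7672-3p (-4.57), miR-7688-5p (-0.25) and miR-7689-3p (-0.33) in KO against WT. They turned for miR-7648-3p (-0.37), miR-7650-5p (-0.29) and miR-7688-5p (-0.12) in E518K against WT. In E518K against KO they turned for miR-7650-5p (1.59), miR-7655-5p (1.01), miR-7688-5p (0.13) and miR-7689-3p (1.54), and on the pRPM scale for miR-7650-5p (0.02) and miR-7689-3p (0.02). The lists set these scales by construction, and which scale is right was not tested.

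Members lower in E518K against WT numbered 0 with DESeq2, with only the groups compared, with halved counts, and 0 to 1 with 1 library left out. Those higher numbered 3 of 3 tested with only the groups compared and 6 to 7 with 1 library left out. Members lower in E518K against KO numbered 5 on the pRPM scale, 7 of 7 tested with only the groups compared, 7 of 8 with halved counts, 6 with same-read miRNAs merged and 6 to 12 with 1 library left out. In KO against WT, 8 to 13 were higher under the other settings with a filter. Without a filter 16 of 57 were higher, and 22% of all miRNAs. Halving lowers every count under a fixed filter, and with only the groups compared the filter asks for 3 libraries rather than 1, so fewer members were tested; for the rest the cause was not tested.

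Without the 8 most abundant miRNAs the share was 0.0128% in WT and 0.0412% in E518K. Without miR-7688-5p it was 0.129% in KO and 0.00586% in E518K. Members with at least 6 counts per library averaged 8.67 in KO, 7.67 in WT and 5 in E518K, against 19, 25.3 and 13 with at least 1. No paired analysis was possible because the groups compared share fewer than 2 replicate numbers. Depth limits the KO libraries most, where 6 counts are 12.8 CPM or more.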
